A study of Drosophila melanogaster with 2 samples.

Results

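Peaks of Doc2-eGFP binding were examined at 10 genes of the Dpp pathway of Drosophila melanogaster, out of 13945 protein-coding genes on the 6 main chromosome arms (X, 4 and the left and right arms of 2 and 3). A peak belonged to a gene when its summit lay in the body of the gene or when the nearest protein-coding transcription start site (TSS) was one of that gene. By this rule 10 of the 1140 peaks of the series list on those arms belonged to 7 of the 10 genes. Doc2 is a T-box transcription factor of the Dorsocross family, known from the amnioserosa, dorsal ectoderm and heart. Chromatin came from whole embryos of the strain Doc2-GFP, aged 0 to 18 h, which express the fusion protein from an inserted transgene, and was precipitated with an antibody against GFP. In chromatin of whole embryos over this range of ages, a site bound in few cells or at a brief stage cannot be told apart from a weakly bound one. The study had 1 group of 2 biological replicates, so no comparison between conditions exists. Because the genes and lists were chosen with earlier results of these data known, the counts below are descriptions set beside the same counts over all genes or peaks, without a test.

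Dpp is a secreted ligand of the bone morphogenetic protein (BMP) family. It binds complexes of type I and type II receptor kinases, which phosphorylate the Smad protein Mad. Mad enters the nucleus with the co-Smad Medea and, together with the zinc finger protein Schnurri, represses the gene of the repressor Brinker, so that targets of the pathway are released. In the early embryo a gradient of Dpp activity patterns the dorsal side, including the amnioserosa and the dorsal ectoderm, and later Dpp from the ectoderm acts on the dorsal mesoderm that forms the heart. The Dorsocross genes are themselves known targets of Dpp in the dorsal embryo.

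Some of the sites at which Doc2-eGFP was found are shown first as sequence. The windows at tkv and shn are not printed, although the later motif counts and GC content include them. Signals, scores and widths given below belong to whole peaks and not to these windows. For the ligand gene, a receptor gene, the repressor gene, the inhibitory Smad gene and the antagonist gene, the window reaching 100 bases to either side of the summit of the series peak is given, on the plus strand of dm6 from the RefSeq copy of the same assembly. None of the printed windows touched an annotated exon of a protein-coding gene. They lie at chr2L:2433484-2433684 for dpp, chr3L:4070506-4070706 for wit, chrX:7307028-7307228 for brk, chr3R:17065017-17065217 for Dad and chrX:15622958-15623158 for sog. Capitals mark every match to a panel of 14 motifs described further on.

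dpp: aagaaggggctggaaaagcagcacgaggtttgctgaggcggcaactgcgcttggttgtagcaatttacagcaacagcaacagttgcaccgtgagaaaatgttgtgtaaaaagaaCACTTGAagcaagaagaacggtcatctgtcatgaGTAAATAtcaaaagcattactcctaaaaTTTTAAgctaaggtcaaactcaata
wit: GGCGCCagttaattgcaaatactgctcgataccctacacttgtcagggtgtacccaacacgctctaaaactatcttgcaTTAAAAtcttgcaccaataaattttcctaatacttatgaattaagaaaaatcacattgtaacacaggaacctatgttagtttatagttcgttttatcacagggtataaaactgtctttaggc
brk: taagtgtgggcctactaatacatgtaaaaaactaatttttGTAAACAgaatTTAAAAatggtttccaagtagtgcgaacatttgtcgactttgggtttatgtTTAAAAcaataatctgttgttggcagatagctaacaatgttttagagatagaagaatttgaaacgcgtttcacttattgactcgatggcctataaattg
Dad: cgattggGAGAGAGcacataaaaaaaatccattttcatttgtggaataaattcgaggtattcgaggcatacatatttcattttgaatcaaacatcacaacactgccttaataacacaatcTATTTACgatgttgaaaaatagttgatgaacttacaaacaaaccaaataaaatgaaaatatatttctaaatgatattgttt
sog: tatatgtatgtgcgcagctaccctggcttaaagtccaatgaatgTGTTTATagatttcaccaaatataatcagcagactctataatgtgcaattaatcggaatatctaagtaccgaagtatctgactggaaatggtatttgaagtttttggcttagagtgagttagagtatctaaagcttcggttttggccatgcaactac

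Capitals in the dpp window are, from left to right, a Tinman site, a forkhead site and TTAAAA on the minus strand. Those in the wit window are the Brinker site GGCGCC at its left edge and TTAAAA. The brk window holds a forkhead site and 2 copies of TTAAAA, the Dad window 2 overlapping matches to the GAGA factor site and 1 forkhead site, and the sog window 1 forkhead site. Matches on the minus strand, among them the Tinman site at dpp and the forkhead sites at Dad and sog, appear as their reverse complement.

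Peaks were found at the ligand gene, at both receptor genes, at 2 of the 4 genes of nuclear factors, at the inhibitory Smad gene and at the gene of the secreted antagonist. None were found at Mad, Med or tld. The share of genes with a series peak was 7 of 10, against 7.88% of all protein-coding genes. Long genes carried peaks more often. Of all genes with a body of 30 kb or more, 33.3% had a peak, against 12.8% of those from 5 to 30 kb and 4.94% of those under 5 kb. The 4 longest members, dpp, tkv, shn and sog, all had one. In the middle class wit and Dad had a peak and Mad had none, and among the short genes brk had one while Med and tld had none. The median body was 14995 bp over the members and 2166 bp over all genes, and the part of gene length in the members' count was not tested. Counted by sequence instead of by gene, the 281695 bp that lie in or nearest to the members held 3.55 series peaks per 100 kb, and the 6 arms as a whole held 0.852. Before the authors' threshold the densities were close, with 1.06 ranked peaks per kb at the members and 1.05 over the 6 arms. The authors kept a ranked peak when it scored at least 830, which stands for an irreproducible discovery rate (IDR) of 0.01. The IDR rates each peak by how alike its rank is in repeated peak calls. Of the 298 ranked peaks at the members, 3.36% were in the series list, against 0.813% of all ranked peaks.

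**Figure D1:**
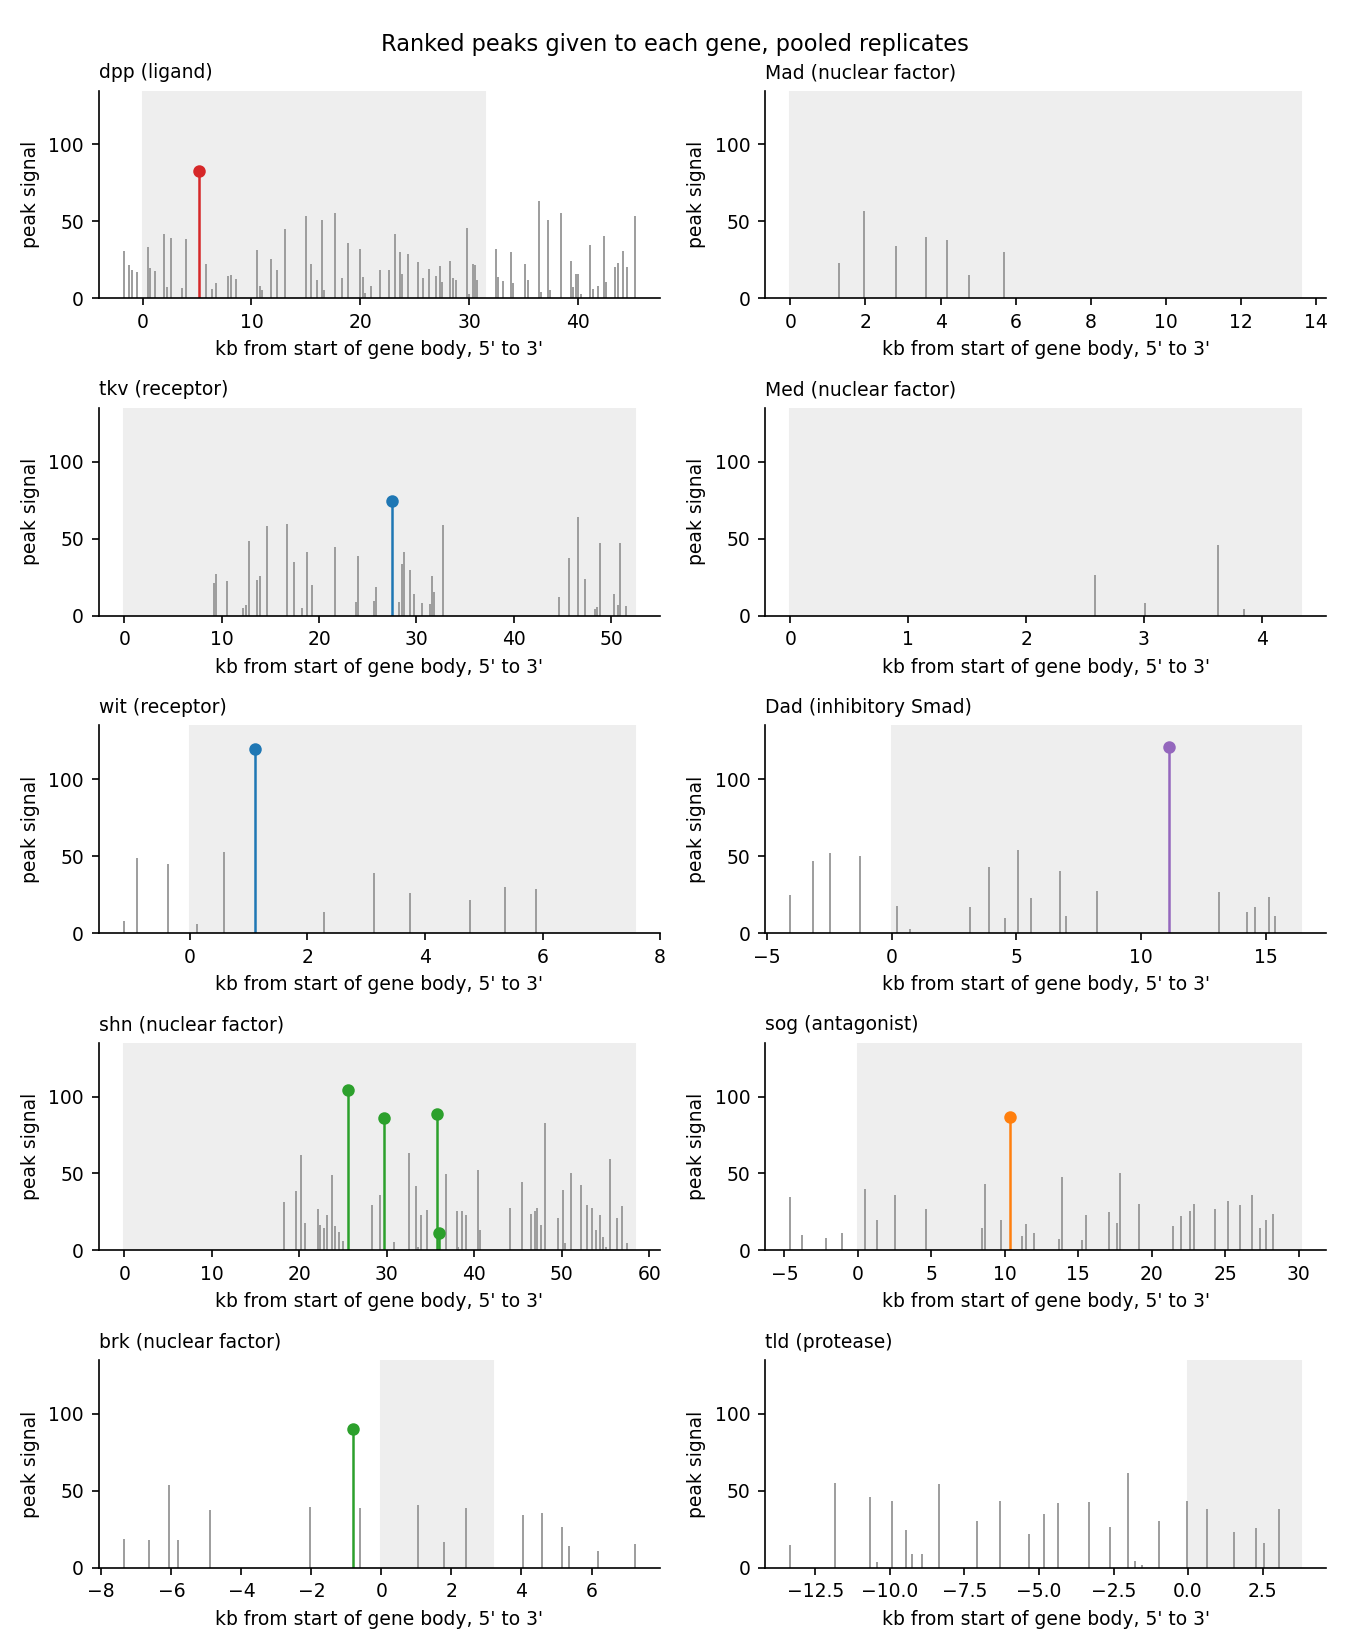
Ranked peaks given to each of the 10 genes, with the distance from the start of the gene body in kb on the horizontal axis and the series signal on the vertical axis. Grey shading is the gene body, grey lines are ranked peaks outside the series list and coloured lines with a dot are the 10 series peaks, 4 of them in shn and none at Mad, Med or tld.

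All 10 member peaks were of moderate or low signal. The signal is a number deposited with each peak by the authors' caller. Its scale is not stated in the labels. Ranks of the signal are taken within a list, and values set side by side from different lists may differ in scale. It ran from 11.0 to 121 at the members and from 2.07 to 1054 over the series list, whose median was 105. Dad and wit lay above that median, and the other 8 peaks lay below it. The highest, at Dad, was in place 454 of 1140. A score of 1000, the highest the authors' scale gives, was reached by 4 of the 10, at Dad and at 3 of the shn peaks, and by 66.0% of series peaks. Each of the 10 peaks was 350 bp wide, as were 89.2% of all series peaks. All 10 summits were in introns, against 45.8% of series summits, and 1, at tkv, was within 500 bp of a TSS, against 44.1%. Of the 10 summits, 4 were in shn, and the part of gene length in these shares was not tested. The intron that held the brk summit belongs to another gene, CG1677.

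**Figure D2:**
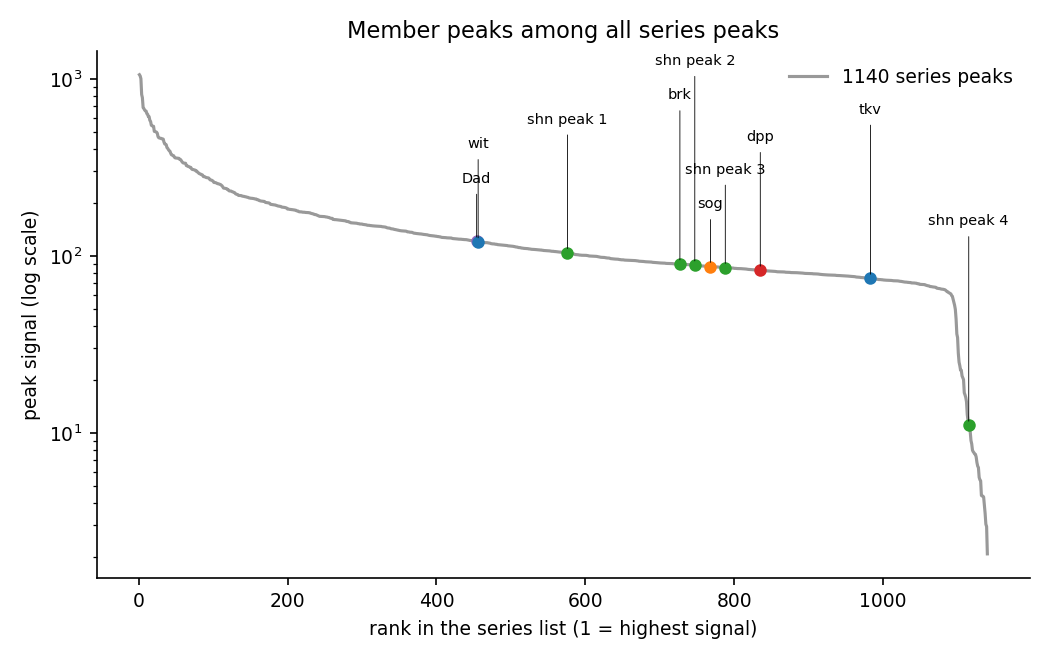
Signal of the 1140 series peaks on a log scale against their rank, where rank 1 is the highest signal. Coloured dots are the 10 member peaks, which lie between rank 454 (Dad) and rank 1115 (the weakest shn peak).

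At dpp (FBgn0000490, 2L, 2428372 to 2459823, plus strand) the ligand gene had 1 series peak, from 2433409 to 2433758. Its summit was 5212 bp downstream of the nearest dpp TSS, in an intron of 26006 bp present in 1 of the 4 annotated transcripts, and 4534 bp from the closest exon. The signal was 44.3 in the ranked list of replicate 1 and 45.3 in that of replicate 2, beside 82.9 in the series list. The replicates gave nearly the same value, and neither placed the site in its own thresholded list, with scores of 143 and 727. The conservative list, a separate list for the series, held the peak with the highest possible score of 1000. dpp carried more ranked peaks than any other member, 84 in its 47120 bp, and 1.78 per kb was the highest density of the 10 genes. Its next sites, which missed the threshold, were intergenic sites beyond the 3' end, 10036 bp and 12082 bp from the nearest dpp TSS with signals of 63.3 and 55.1, and an intron site with 55.3.

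Of the receptor genes, wit encodes a type II receptor known from the neuromuscular junction and tkv the main type I receptor for Dpp. The wit peak (FBgn0024179, gene at 3L, 4064152 to 4071717, minus strand, peak from 4070431 to 4070780) lay in an intron of 3094 bp, 1111 bp downstream of the only TSS. The gene CG32259, nested in the same body, has its TSS 1117 bp from the summit, only slightly farther away. Replicate 1 gave it a signal of 82.7 and replicate 2 one of 30.5, beside 120 in the series list. Replicate 1 placed it in its own list with a score of 1000, and in replicate 2 the score was 30, far from the threshold. Replicate 1 also listed a second wit site closer to the start, with a signal of 40.4 and a score of 891. That site, 583 bp downstream of the TSS in the series ranking, had a signal of 52.8 and a score of 395 and was not in the series list.

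The tkv peak (FBgn0003716, gene at 2L, 5219000 to 5271384, minus strand, peak from 5243755 to 5244104) was 209 bp downstream of 1 of the 4 TSSs of the gene and 52 bp from an exon. It was the only member peak at a promoter. Replicate 1 gave it a signal of 33.6, replicate 2 one of 45.8 and the series list one of 74.6, the reverse of the order at wit, and it was in the thresholded list of neither. In replicate 2 the tkv site of highest ranked signal was another one, 5218 bp away from that of replicate 1, with a signal of 48.0 and a score of 286. In the series ranked list a stretch of 11.9 kb of the tkv body held no ranked summit. Replicate 1 had 0 summits there and replicate 2 had 11. The 3 tkv sites of highest series signal below the threshold were all in introns, with series signals of 63.9, 59.5 and 59.0. Their scores were 345, 562 and 628, and each had a higher signal in replicate 2, as the promoter site did. The last of them is the site of highest ranked signal in replicate 2.

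Among the nuclear factors, shn, the gene of the zinc finger cofactor Schnurri (FBgn0003396, 2R, 11159086 to 11217394, plus strand), had 4 of the 10 member peaks. All were in introns and none at a promoter. The first by signal, from 11184443 to 11184792, was 1394 bp downstream of a TSS, with a series signal of 104 beside 66.4 in replicate 1 and 43.3 in replicate 2. The third by signal, from 11188643 to 11188992, was 4200 bp farther along, with 85.9, 55.1 and 30.8 in the same order, and was missing from the conservative list. Both were in the own list of replicate 1 and not in that of replicate 2.

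The second shn peak, from 11194644 to 11194993, was 3457 bp upstream of the nearest TSS, inside an intron of 17848 bp. It had a signal of 45.9 in replicate 1 and 57.3 in replicate 2, beside 88.7 in the series list, and was in the lists of both replicates. It was the only member peak that replicate 2 called. The fourth, from 11194844 to 11195193, overlaps it, with summits 200 bp apart, a signal of 11.0 and a score of 1000. Replicate 1 had a ranked peak at the same place with a signal of 11.8, and in replicate 2 only the neighbouring peak overlapped it. Merging these neighbours leaves 9 member peaks.

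A further shn site with a signal of 82.6, 2586 bp downstream of a TSS (summit at 11207215), showed how the lists differ. It had a score of 937 in the conservative list and of 208 in the series ranking, so it was in the first list and not in the series list. Its signal was 36.9 in replicate 1 and 50.8 in replicate 2. Ranked summits covered shn unevenly, since the first 18.3 kb of the body had none in the series ranked list, where replicate 1 had 1 summit and replicate 2 had 5. A gap of 9 kb or more, a length chosen after its values were seen, was present in tkv and shn, which are 2 of the 4 members with a body of 30 kb or more, and in 43.3% of all 663 genes of that length.

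The repressor gene brk (FBgn0024250, X, 7307939 to 7311132, plus strand) had 1 peak, from 7306953 to 7307302, with the summit 811 bp upstream of its TSS. That position is also inside an intron of 73902 bp of CG1677, a gene whose body contains brk. This intron is present in 1 of the 4 annotated transcripts of CG1677. The series signal was 89.9, with 39.6 in replicate 1 and 45.0 in replicate 2, which are close to each other. The replicate summits were 114 bp apart, the widest gap among the 9 member peaks with a summit of their own in each replicate, where the median was 6 bp. Over all series peaks the median was 20.0 bp.

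Mad and Med had no series peak. At Mad (FBgn0011648, 2L, 3146056 to 3159643, minus strand), the receptor-activated Smad, the strongest ranked site was in an intron 1974 bp downstream of a TSS, with a series signal of 56.5 and a score of 149. The replicates disagreed on the strongest Mad site, which had a signal of 27.2 in replicate 1 and 42.2 in replicate 2, at places 2713 bp apart. The series peak closest to the gene was 45.0 kb beyond its body, in an intron of toc. At Med (FBgn0288966, 3R, 31611046 to 31615375, plus strand), the co-Smad Medea, the strongest of 4 ranked sites had a signal of 45.7, with 26.7 in replicate 1 and 19.7 in replicate 2. A strong series peak stood 808 bp beyond the 3' end of Med, with a signal of 372, 217 in replicate 1 and 161 in replicate 2, and was in the lists of both. It was in place 44 of the series list, and its summit was 23 bp upstream of the TSS of the neighbouring gene Mnat9, so the rule gave it to Mnat9 and not to Med.

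Dad encodes the inhibitory Smad of the pathway and is itself a known target of Dpp. Its peak (FBgn0020493, gene at 3R, 17054007 to 17070408, plus strand, peak from 17064942 to 17065291) was in an intron of 3509 bp present in all 4 transcripts, 156 bp from an exon and 10220 bp downstream of the nearest Dad TSS. The nearest protein-coding TSS was that of Ns1, 7558 bp away, so the peak belongs to Dad only by lying in its body. The series signal was 121, with 90.1 in replicate 1 and 41.8 in replicate 2, and the summits of the replicates were 1 bp apart. Replicate 1 called it with a score of 1000, and in replicate 2 the score was 600.

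Outside the cell, Short gastrulation, encoded by sog, binds and inhibits Dpp, and the metalloprotease Tolloid, encoded by tld, cleaves Short gastrulation and so frees the ligand. The sog peak (FBgn0003463, gene at X, 15603283 to 15633434, minus strand, peak from 15622883 to 15623232) was in an intron of 10523 bp, 3482 bp downstream of a TSS, with a series signal of 87.0 beside 53.9 in replicate 1 and 32.7 in replicate 2. Replicate 1 called it and replicate 2 gave a score of 152. At tld (FBgn0003719, 3R, 24749731 to 24753510, plus strand) no site reached the threshold. Its best ranked site had a signal of 61.4 and a score of 428 and lay 2003 bp upstream of the TSS, in a coding exon of the neighbouring gene tok, which encodes a related protease. The tld sites of highest signal in the replicates, with 33.5 and 32.2, were 13665 bp apart.

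The replicates divided the members unevenly. The list of replicate 1 held 7 peaks at wit, shn, Dad and sog, and 5.57% of all genes had a peak in its list. The list of replicate 2 held 1 peak, at shn, and 3.42% of all genes had one in its list. The conservative list held 9 peaks at the same 7 genes as the series list, against 7.31% of all genes, and 8 of them were also series peaks. Of the 10 series peaks, 7 overlapped the list of replicate 1 by at least 1 bp, against 63.0% of all series peaks. In the list of replicate 2 there were 2, against 38.9%. Both of these were at the overlapping shn sites and were also in the list of replicate 1, so that 2 of 10 were shared by both replicates, against 33.9%. By a stricter match, with summits within 50 bp, 1 was shared. The peaks of brk, dpp and tkv were in the list of neither replicate.

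**Figure D3:**
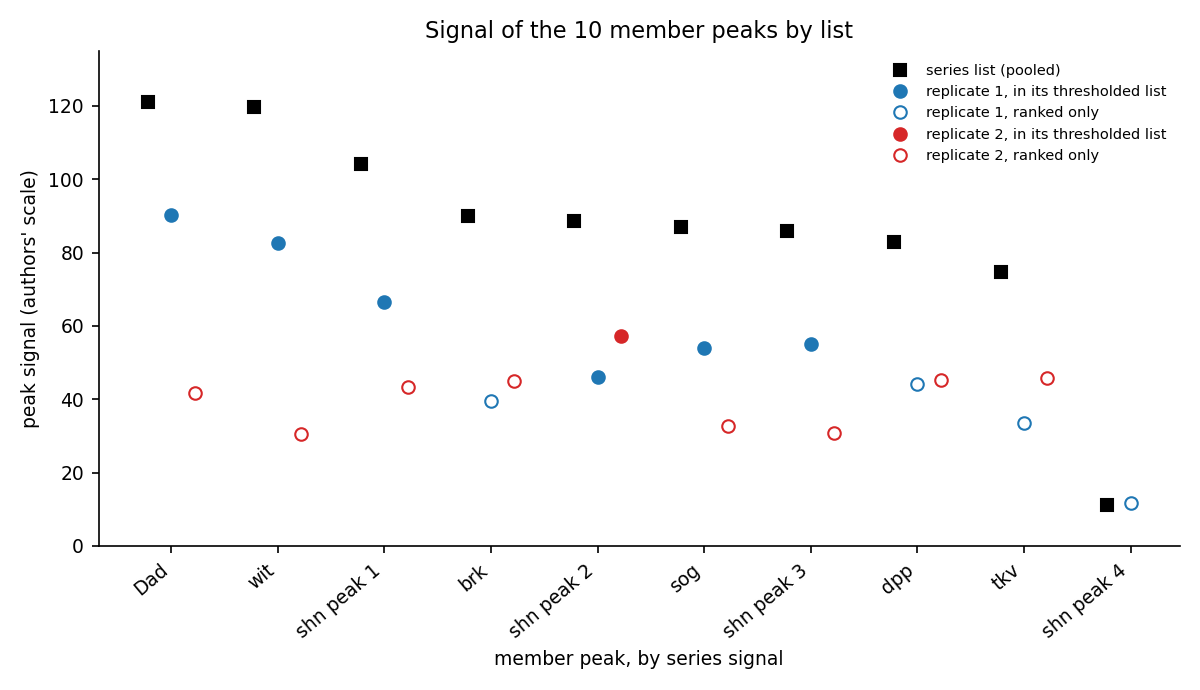
Signal of each member peak, ordered by its series signal, in the series list (black squares), replicate 1 (blue) and replicate 2 (red). Filled circles are peaks in a replicate's own thresholded list and open circles ranked peaks outside it, and the weakest shn peak has no point for replicate 2 because only its neighbour overlapped it there.

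In ranked signal the 9 peaks with a summit of their own in each replicate fell on both sides. The signal was higher in replicate 1 at Dad, wit, sog and 2 of the shn peaks, and higher in replicate 2 at brk, dpp, tkv and the second shn peak. Over the 1112 series peaks with a ranked peak in each replicate most were higher in replicate 1, with a median ratio of replicate 1 to replicate 2 of 1.29. The ratio was 2.71 at wit and 2.16 at Dad, placing them at the 97.5th and 93.3rd percentile of those 1112 peaks. It was 0.734 at tkv and 0.802 at the second shn peak, at the 6.56th and 9.53rd percentile. At brk and dpp, where the 2 signals were close, it was 0.878 and 0.978, at the 13.8th and 21.1st percentile. Both are below the median ratio. The ratios depend on the depth and scale of each library, which are unknown here, whereas the percentiles compare peaks of the same libraries. In each replicate the ranked peak of highest signal was at the same site for dpp, wit, brk, Dad and sog, which are 5 of the 7 genes with a series peak, against 74.8% of all genes with one. For tkv and shn the replicates ranked different sites first.

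**Figure D4:**
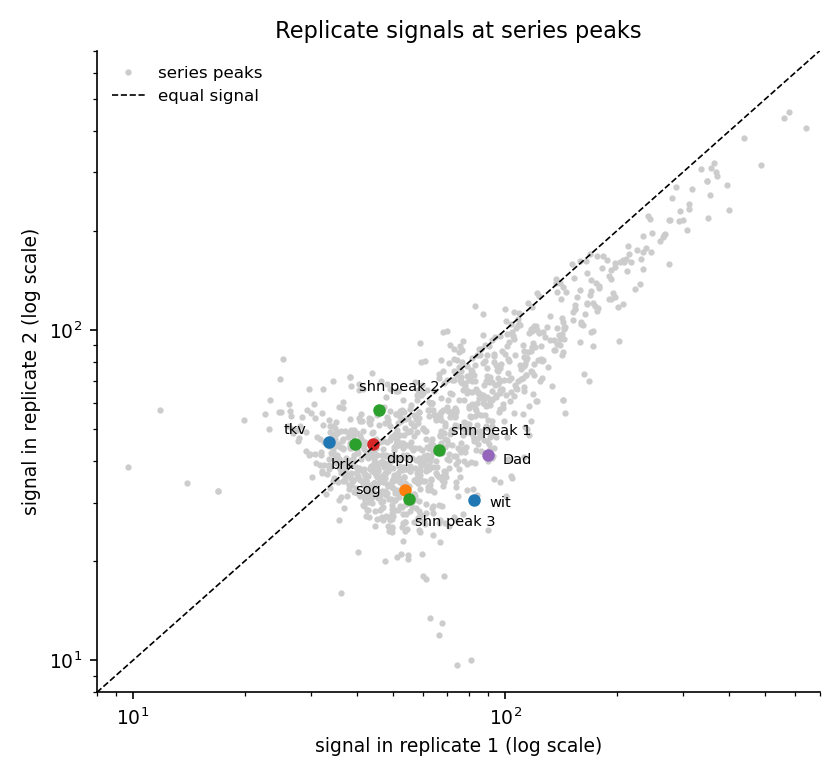
Signal in replicate 2 against signal in replicate 1 on log scales for series peaks (grey, 1100 drawn and 12 outside the axes) and for the 9 member peaks with a summit of their own in each replicate (coloured by role). Below the dashed line the signal is higher in replicate 1, as at wit and Dad, and above it in replicate 2, as at tkv and the second shn peak.

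The sequences at these summits were searched on either strand, within 100 bp, for 14 motifs. GC content of the 10 windows ran from 27.9% at Dad and the second shn peak to 52.2% at tkv, with a median of 36.3% against 37.3% over all series peaks. The T-box site GGTGTGA, to which the family of Doc2 binds, was in 0 of 10 windows, against 1.58% of series windows and 1.97% of windows 1000 bp to either side. Sites of the factors of the pathway itself were in few windows, at the members and over the series list alike. The Mad site GCCGNCG was in the tkv window, against 5.88% of series windows, and the Brinker site GGCGCC in the wit window, against 3.51%. In windows 1000 bp to either side the shares were 9.04% for the Mad site and 4.21% for the Brinker site. The silencer element bound by Mad, Medea and Schnurri was in 0 of 10, against 0.0877%, and the doubled Smad box GTCTAGAC was in 0 windows, at the members and in the series list alike.

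More frequent motifs were shared out among the peaks. The forkhead site ATAAACA, with G also allowed at the first place and T at the sixth, was in 4 of 10 windows, those of dpp, brk, Dad and sog, against 33.6% of series windows. TTAAAA was in 4 of 10, those of dpp, wit, brk and the second shn peak, against 43.9%. The Tinman site TNAAGTG was at dpp and at the first and the third shn peak, against 15.9%, and the GAGA factor site GAGAG at Dad and at the second and the fourth shn peak, against 25.4%. ACAGTG, which like TTAAAA was put in the panel from an earlier search of these same data, was in 2 of 10 windows, both in shn, against 22.6%. The Mef2 site was in the window of the first shn peak, against 11.1%. In windows 1000 bp to either side the forkhead site was in 23.5%, TTAAAA in 24.7% and the Tinman site in 12.8%. The GAGA factor site was in 21.9% of those windows, ACAGTG in 8.55% and the Mef2 site in 5.75%. The sites TATCGATA of the DNA replication-related element, TAATTA of homeodomain proteins and CAGGTAG of Zelda were in 0 of 10, against 2.02%, 14.4% and 0.614%. The counts moved with the window. Within 50 bp of the summit the forkhead site was in 1 of 10, against 20.5% of series peaks, and the GAGA factor site in 0 of 10, against 10.9%, whereas ACAGTG stayed at 2 of 10, against 7.46%. Within 250 bp the forkhead and GAGA factor sites were in 5 and 6 of 10, against 56.1% and 56.8%. ACAGTG was in 5 of 10, against 37.5%. At this width the windows of the overlapping shn peaks, with summits 200 bp apart, share sequence. The same ACAGTG match lay in both, so the 5 windows with ACAGTG are not all separate. Within 250 bp the T-box site was again in 0 of 10, against 3.95% of series peaks. The Mad site was in 3 of 10, those of tkv, wit and sog, against 21.8%. No motif was in every member window, and no match overlapped a match to another motif of the panel.

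Of 41 other genes, 21 of the pathway and 20 of its known targets, 10 had a series peak, a share of 24.4% beside the 7.88% of all genes. Their median body of 7466 bp was also longer than that of all genes. The pathway genes were gro, a corepressor gene (signal 186, 147 bp upstream of a TSS), magu, the gene of a secreted feedback regulator (136, 283 bp upstream), dlp, a glypican gene (94.2), and babo, a type I receptor gene of the Activin branch (85.9). Each of these summits was in an intron, and those of gro and magu were in the lists of both replicates. The target genes were Doc2 (210 at the stronger of 2 peaks, intergenic), ush (98.0, intron), egr (93.0, intron), Doc1 (84.6, coding exon), Doc3 (78.0 at the stronger of 2 peaks, coding exon) and bi (75.4, intron). Of these, Doc2 had this peak in the lists of both replicates. Doc2 is the gene of the tagged factor itself, and the embryos also carry the inserted transgene. Any part of the transgene in the signal at Doc1, Doc2 and Doc3 was not tested. No peak of the series list was found at the other ligand genes of the BMP branch, gbb and scw, at the receptor genes sax and put, or at the target genes pnr, zen, tup and peb.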

How the data were processed

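ChIP-seq with an anti-GFP antibody was done on 2 biological replicates of whole embryos, with chromatin sonicated to 200 to 800 bp, per the labels. The authors deposited peak lists on dm6, thresholded and ranked by IDR. No source used here names the aligner or caller, or how either was run. A control library was not analysed here. The deposited signal is the caller's value for each peak, the deposited score is a scaled IDR, and the ranked lists also hold the deposited −log10 of the IDR. The series list is contained in 1 of the 2 ranked series lists, and the conservative list in the other. That the series list pools the replicates is not stated in the labels. Read counts were not used, so depth is unknown and no interval is given.

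Positions are 1-based. Genes are those of Ensembl release 115. A replicate's value at a series peak is that of its ranked peak with the nearest summit among those overlapping by at least 1 bp. The members, gene lists and motifs were chosen with earlier results of these data known. The genes named are the 10 members, other listed genes with a series peak, and genes that hold or neighbour a member's peak. The gap length, the genes without a peak named last and the peak beside Med were picked after their values were seen. Assignment and motif search were tested on simulated data. The work used Python 3.11.15, numpy 2.4.6, pandas 2.3.3 and matplotlib 3.10.9.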

Additional observations from a re-analysis of the deposited data

How the results depend on the processing

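The 7 member genes were the same with the conservative list, with overlapping peaks merged and with ranked peaks of a score of at least 540. By nearest TSS alone Dad dropped out, by gene body alone brk dropped out, and with 5 kb added to the body Med joined through the peak beside Mnat9. A single replicate gave 1 to 4 member genes, 1 to 7 peaks and 3.42% to 5.57% of all genes, with 3 to 4 of the 41 other genes. The median percentile of the member peaks was 14.9 in the list of replicate 1 (33.6 in the series list). In the list of replicate 2 the percentile was 19.0, that of its 1 member peak. With the 570 peaks of highest signal, 2 member genes (wit and Dad) with 2 peaks, 4.22% of all genes and 3 of the other genes were left. That list keeps peaks by signal, and 8 of the 10 member peaks lie below its lower bound. The share of all genes was 4.22% by gene body alone, 17.2% with 5 kb added and 17.7% with a score of at least 540, where 19 of the other genes had a peak. Peaks shared by both replicates numbered 1 with an overlap of at least 50% of the peak, in place of 2, and 1 with summits within 50 bp, and peaks at a promoter numbered 2 within 1000 bp of a TSS, in place of 1. Of 48 further comparisons, on single genes and motifs, 28 moved and 20 did not. The comparisons on single genes set the signal in the series list against that in the list of 1 replicate. These lists may differ in scale, so such comparisons cannot show whether a result is stable. No paired analysis was possible because there is 1 group.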
